A study of Sus scrofa with 33 samples.

Results

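The corticotroph genes of the stress axis were followed in the pituitary of 33 castrated male growing pigs. They were listed as POMC, CRHR1, AVPR1B, NR3C1 and CRHBP, and their probes were taken wherever the array named the gene or its description gave the symbol. Of 60305 probes, 12 were found in this way, 5 for POMC, 3 for CRHR1 and 4 for NR3C1. No probe carried the name AVPR1B, the vasopressin receptor of corticotrophs, or CRHBP, the binding protein of corticotropin-releasing hormone, so both genes were not analysed here.

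The pigs were Large White (LW), Creole (CR) or their F1 cross, 11 of each. In each breed some were slaughtered under thermoneutral conditions (TN, labelled 24 °C) before the room was warmed, and the others after days of heat stress (HS, labelled 30 °C, although the text of the series gives a higher temperature). There were 5 LW TN, 6 LW HS, 6 F1 TN, 5 F1 HS, 5 CR TN and 6 CR HS arrays, with 1 animal per array. Slaughter day and age moved with temperature and cannot be told apart from it. The pigs came in blocks of littermates, which the labels did not carry, so pigs of a breed were not all unrelated. The array LW HS 3 was Large White by its title and Creole by its breed field. It was kept as Large White, and breed results are also given with it as Creole.

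In the stress axis, the hypothalamus releases corticotropin-releasing hormone and vasopressin, which act on corticotrophs of the anterior pituitary. Corticotropin-releasing hormone binds CRHR1, a receptor that raises cyclic AMP, and the cell makes and secretes adrenocorticotropin, a peptide cut from the POMC precursor. Adrenocorticotropin drives cortisol release from the adrenal cortex. Cortisol in turn binds the glucocorticoid receptor, encoded by NR3C1, and restrains POMC and the response to corticotropin-releasing hormone. Corticotrophs are not the only site of these genes, since melanotrophs of the intermediate lobe also make POMC and most cell types carry NR3C1.

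Each probe is a strand of 60 bases, read here from the array files, 5′ to 3′. The 6 probes from within the coding part of the transcripts are shown because the readings of a gene differed with the place where it was probed. Capitals mark the longest run of G and C in each, which was 17 bases in the POMC probe A_72_P668559 and 2 to 5 bases in the other 5.
POMC A_72_P232287: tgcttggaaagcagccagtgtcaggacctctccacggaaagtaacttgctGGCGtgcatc
POMC A_72_P668559: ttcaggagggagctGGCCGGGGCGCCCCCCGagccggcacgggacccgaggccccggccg
CRHR1 A_72_P413663: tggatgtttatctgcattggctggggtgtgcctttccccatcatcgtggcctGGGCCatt
CRHR1 A_72_P440711: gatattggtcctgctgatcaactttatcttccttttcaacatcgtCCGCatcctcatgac
NR3C1 A_72_P444091: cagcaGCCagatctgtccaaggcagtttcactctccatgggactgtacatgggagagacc
NR3C1 A_72_P464460: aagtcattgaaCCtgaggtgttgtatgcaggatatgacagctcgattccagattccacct

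The share of G and C was 83.3% in A_72_P668559, 55% in A_72_P232287, A_72_P413663 and A_72_P444091, 45% in A_72_P464460 and 43.3% in A_72_P440711. The files give the place of these probes in the transcript as base 158 and 596 of POMC, 684 and 827 of CRHR1, and 605 and 2007 of NR3C1. The third CRHR1 probe, O7851, carries the same 60 bases as A_72_P413663. The remaining POMC probes, A_72_P671668, A_72_P538393 and O9240, lie at the 3′ end of the transcript, hold the polyadenylation signal AATAAA and share 43 to 58 bases in pairs. The remaining NR3C1 probes, A_72_P035891, at base 3187, and O9499, share no stretch with each other. The files give no genome position or build for any of them.

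All 12 probes passed the filter on dim probes and were well above background on all 33 arrays, with 0 saturated spots. Values are log2 intensities after quantile normalization, an operation that gives every array the same set of values. Levels are compared within a probe, not between probes. Over the arrays, 73.5% to 82.2% of spots were well above background. The labelled tissue was checked on marker genes. The pituitary hormones GH1, PRL, LHB and TSHB were well above background on all 33 arrays. TBX19, the transcription factor that defines the POMC lineage, was well above background on 8 arrays and did not pass the filter. AVP and OXT, hormones made by hypothalamic neurons and stored in the posterior lobe, were well above background on 33 arrays at means of 16.96 to 17.01 and 15.63 to 15.72 in the 3 breeds, although the methods of the study name the anterior lobe. The melanotroph markers PAX7, PCSK2 and OPRK1 were also detected on 33 arrays. In whole tissue, fewer cells of a type and less RNA per cell cannot be told apart.

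POMC was read near the top of the scale. The 3 probes at the 3′ end had means of 19.01 (A_72_P671668), 18.92 (A_72_P538393) and 18.86 (O9240), where the brightest value of each array was 19.36. On every array they ranked between 5 and 28 among 47083 probes. Their spread within groups was an SD of 0.043, 0.033 and 0.035, compared with a median of 0.126 for the 302 probes with means above 17 and of 0.198 for all probes. Scaled by the array median in place of quantile normalization, the same SDs were 0.085, 0.091 and 0.081. The 2 coding probes had means of 17.33 (A_72_P232287) and 17.17 (A_72_P668559) and SDs of 0.27 and 0.29.

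**Figure D1:**
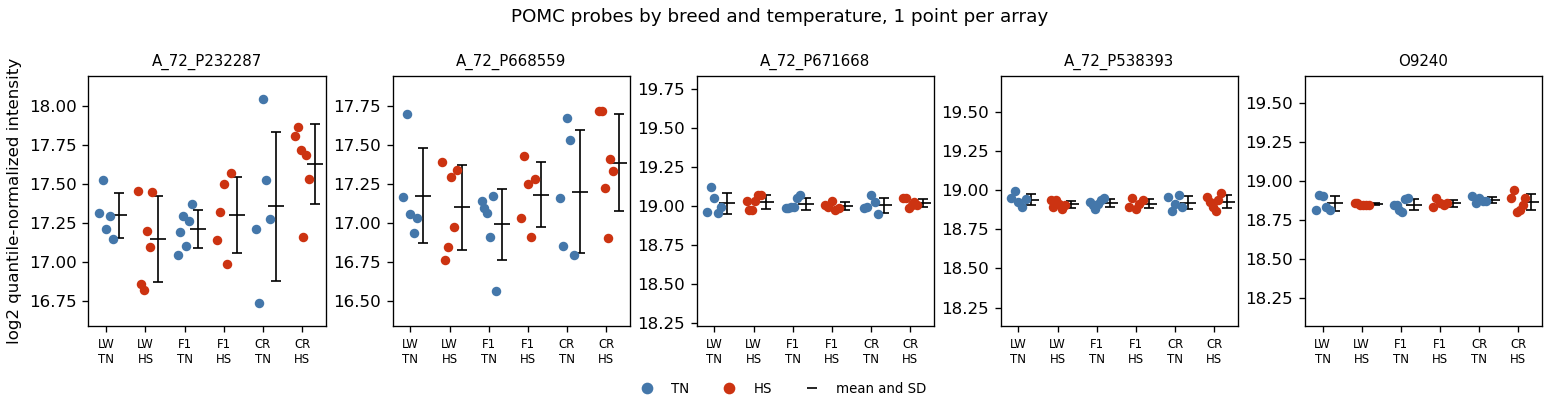
Log2 quantile-normalized intensity of the 5 POMC probes on each array, by breed and temperature (blue, TN; red, HS), with the group mean and SD in black; all panels span the same number of log2 units. The 2 coding probes on the left spread widely, whereas the 3 probes at the 3′ end lie in a narrow band near 19.

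The coding probes varied together, with a correlation of 0.74 over the 33 arrays after group means were removed. Each correlated with A_72_P671668 at 0.55, and the 3′-end probes with each other at 0.29 to 0.56. These correlations are across arrays and also hold what the probes of an array share, such as its RNA.

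On A_72_P232287, the CR HS arrays were the highest group, with a lowest value of 17.16, a median of 17.70 and a highest of 17.87. The CR TN arrays were 17.21, 16.74, 18.04, 17.52 and 17.28. The LW TN arrays were 17.32, 17.52, 17.21, 17.29 and 17.15. The LW HS arrays ran from 16.82 through a median of 17.15 to 17.45, the F1 TN arrays from 17.05 through 17.23 to 17.38, and the F1 HS arrays were 17.14, 17.32, 17.50, 16.99 and 17.57. All 6 groups overlapped, and CR TN alone spanned both the lowest and the highest value of the 33 arrays. From the highest to the lowest, the group means were in the order CR HS, CR TN, F1 HS, LW TN, F1 TN and LW HS, and no neighbours in it differed beyond their spread. On A_72_P668559 CR HS was again the highest (17.38 ± 0.31, SD, n = 6) and F1 TN the lowest (16.99 ± 0.23, SD, n = 6). On the 3′-end probes the 6 group means lay within 0.027 to 0.031.

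CRHR1 was read at 8.78 on A_72_P413663 and 8.87 on O7851, which share their sequence, with a mean difference between them of 0.10 and a correlation of 0.96 within groups. A_72_P440711, which starts further along the transcript, was at 6.65 and correlated with those 2 at 0.72 and 0.73. On A_72_P440711 the CR HS arrays ran from 6.64 through a median of 7.11 to 7.39. The CR TN arrays were 6.09, 6.73, 7.27, 6.48 and 6.61. The LW TN arrays were 6.23, 6.29, 6.66, 6.55 and 6.61, and the LW HS arrays ran from 6.13 through 6.28 to 6.65. The F1 HS arrays were 6.93, 6.16, 6.94, 6.57 and 7.08, and the F1 TN arrays ran from 6.46 through 6.57 to 6.73. Of the 6 CR HS arrays, 5 lay above every LW array, and the lowest CR HS array fell inside the LW range. The gap from CR HS (7.11 ± 0.27) to the next group, F1 HS (6.74 ± 0.37), was 0.38 and the only one beyond the spread of its neighbours. On the 2 probes of shared sequence CR HS was also the highest, F1 TN the lowest, and no neighbours differed beyond their spread.

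**Figure D2:**
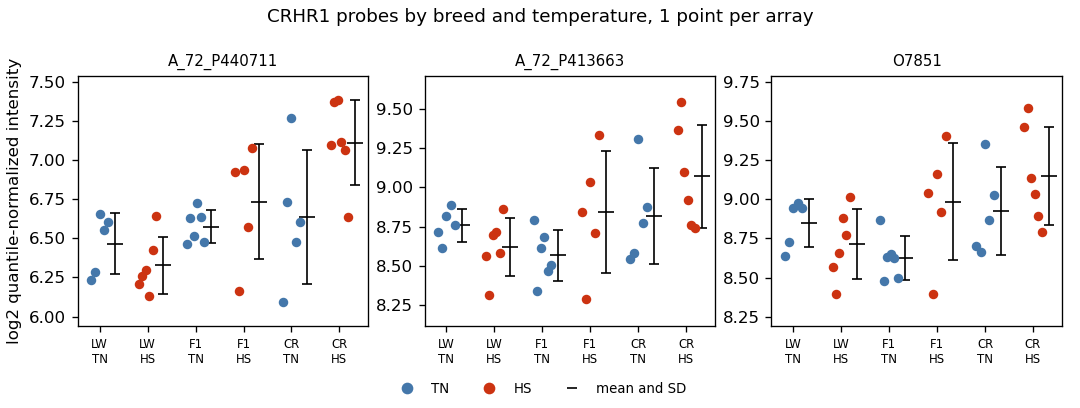
Log2 quantile-normalized intensity of the 3 CRHR1 probes on each array, by breed and temperature (blue, TN; red, HS), with the group mean and SD in black; the right-hand 2 panels show probes of the same sequence. CR HS has the highest mean in every panel, and the groups overlap.

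NR3C1 gave 2 kinds of reading. A_72_P035891 (mean 9.88) and O9499 (9.30) varied together, with a correlation of 0.79 within groups. The coding probe A_72_P464460 (8.74) correlated with them at -0.01 and -0.16, and A_72_P444091 (7.94) at 0.29 and 0.11. On A_72_P035891 the CR HS arrays ran from 9.98 through a median of 10.05 to 10.25. The CR TN arrays were 10.02, 9.95, 9.81, 10.06 and 9.71. The LW TN arrays were 9.86, 9.90, 9.86, 9.66 and 9.69, and the LW HS arrays ran from 9.60 through 9.83 to 9.99. The F1 TN arrays ran from 9.72 through 9.83 to 9.95, and the F1 HS arrays were 9.74, 9.84, 9.94, 10.16 and 9.72. Of the LW arrays, 1 of 11 reached the CR HS range. The gap between CR HS and the next group, CR TN, was 0.17, and it was the only one beyond the spread of its neighbours. On O9499 the 11 CR arrays ran from 9.22 through 9.44 to 9.52 and the 11 LW arrays from 9.004 through 9.22 to 9.43. On A_72_P444091 and A_72_P464460 the highest group was F1 HS (8.14 ± 0.15 and 8.89 ± 0.11, SD, n = 5), with no neighbours beyond their spread. A further probe, named AY007222 and described as the 3′ end of the glucocorticoid receptor, carries no gene symbol and stayed outside the 12. Its mean was 5.83.

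**Figure D3:**
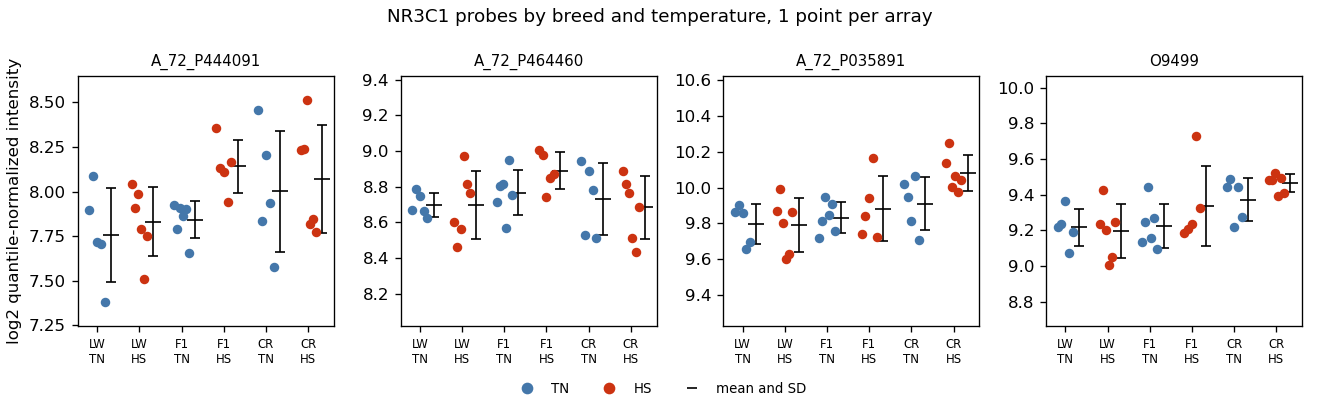
Log2 quantile-normalized intensity of the 4 NR3C1 probes on each array, by breed and temperature (blue, TN; red, HS), with the group mean and SD in black; all panels span the same number of log2 units. LW arrays lie below most CR arrays on A_72_P035891 and O9499, whereas LW and CR overlap widely on A_72_P464460.

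The study was designed to ask what heat changed. None of the 12 probes differed between HS and TN by limma with breed in the model (0 called at an adjusted p under 0.05, against 0.0191% of all 47083 probes), and 0 had an unadjusted p under 0.05, against 8.68%. The latter count was 2 with array weights (A_72_P035891, p 0.0412, and A_72_P444091, p 0.0227, both by limma) and 1 with the processed signal (A_72_P035891, p 0.0498 by limma). Without LW TN 2 and CR TN 1, the 2 arrays low in TSHB, it was 1 (A_72_P444091 at 0.22, p 0.00611, adjusted p 0.434 by limma). For POMC the log2 difference was 0.07 on A_72_P232287 (95% interval -0.12 to 0.26), 0.10 on A_72_P668559 (-0.10 to 0.30) and -0.009 to 0.004 on the 3′-end probes. For CRHR1 it was 0.13 to 0.17, with the widest interval on A_72_P440711 (-0.04 to 0.37). For NR3C1 it was 0.02 to 0.15, and A_72_P444091 had the lowest adjusted p of the 12 (0.15, 95% interval -0.02 to 0.31, adjusted p 0.633). In all, 10 of 12 differences were positive, with a median of 0.07, against a median of 0.008 over all probes, and the 2 negative ones, both at the 3′ end of POMC, turned positive with the processed signal or median scaling. Probes of 1 gene are not independent readings, and 2 of the 12 are the same sequence.

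Within single breeds, 0 of the 12 probes passed the limma threshold, as did 0% of all probes in each. In Creole pigs 10 were higher under heat, the most A_72_P440711 of CRHR1, by 0.48 (SE 0.16, adjusted p 0.830), with all 6 CR HS arrays above the CR TN mean. In F1 pigs 10 were higher, the most O7851 of CRHR1, by 0.36 (SE 0.15, adjusted p 0.862). In Large White pigs 10 were lower, the most A_72_P232287 of POMC, by -0.15 (SE 0.16, adjusted p 0.894). Some of these were slight, such as -0.0008 on A_72_P464460 and -0.002 on A_72_P035891. The median of the 12 was 0.13 in Creole, 0.12 in F1 and -0.03 in Large White. Over all probes it was 0.004, 0.009 and 0.005. At an unadjusted p under 0.05 the limma counts were 1 in Creole (5.88% of all probes), 2 in F1 (5.71%) and 0 in Large White (6.76%). The Creole count was 2 with the processed signal, median scaling, slide as a fixed or random block, or array weights. The F1 count was 1 with median scaling or slide as a fixed or random block. The difference between breeds in the heat effect was tested as an interaction, which 0 of 12 probes passed (0% of all probes; lowest adjusted p 0.925). By unadjusted p in limma, 1 of 12 lay under 0.05, A_72_P440711 (p 0.0362), against 4.29% of all probes. This count was 0 with LW HS 3 as Creole or with normexp and 2 with array weights. Without 1 array at a time it ran from 0 to 4.

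Between breeds, Large White arrays were lower than Creole arrays on 3 of 12 probes by limma with temperature in the model, 1 for CRHR1 and 2 for NR3C1. Of all probes, 6.53% were called in this comparison and 2.99% were called lower. The log2 difference, LW minus CR, was -0.51 for CRHR1 on A_72_P440711 (SE 0.12, adjusted p 0.00794), with 11 of 11 LW arrays under the CR mean. For NR3C1 it was -0.22 on O9499 (SE 0.061, adjusted p 0.0236), with 10 of 11 LW arrays under the CR mean. On A_72_P035891 it was -0.21 (SE 0.060, adjusted p 0.0279), with 11 of 11. With median scaling in place of quantile normalization, 1 of 12 was called, A_72_P440711, and O9499 and A_72_P035891 had adjusted p of 0.0914 and 0.115. Without LW HS 5 the same 2 probes were not called (0.0508 and 0.0596), and A_72_P035891 was also not called without CR HS 1 (0.0526), CR HS 2 (0.0607) or LW HS 4 (0.0541). For none of the 12 probes did the LW and CR arrays separate without overlap, as they did for 0.279% of probes that could be compared.

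The 2 other CRHR1 probes did not pass, at -0.27 on both (SE 0.11, adjusted p 0.166 and 0.169), although 11 of 11 LW arrays lay under the CR mean. Their 95% intervals (-0.50 to -0.04 on both) overlapped that of A_72_P440711 (-0.75 to -0.26). Of the coding probes of NR3C1, A_72_P444091 was at -0.24 (SE 0.098, adjusted p 0.154; -0.25 and called, adjusted p 0.0396, with slide as a fixed block) and A_72_P464460 at -0.008 (95% interval -0.14 to 0.13, adjusted p 0.976). The unnamed receptor probe AY007222 was at 0.07 (SE 0.077, adjusted p 0.736). For POMC, A_72_P232287 was at -0.29 (SE 0.11, adjusted p 0.141; -0.37 and called, adjusted p 0.0252, without CR TN 2), with 10 of 11 LW arrays under the CR mean, A_72_P668559 at -0.17 (SE 0.12, adjusted p 0.505), and the 3′-end probes between -0.018 and 0.008 with 95% intervals inside -0.080 to 0.073. In all, 11 of 12 differences were negative, with a median of -0.21 against -0.001 over all probes, of which A_72_P538393 and O9240 of POMC turned positive with the processed signal or median scaling, and 7 of 12 had an unadjusted p under 0.05, against 18.4%.

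The breed calls changed with the breed given to 1 array. With LW HS 3 as Creole, 0 of 12 probes were called by limma: A_72_P440711 was at -0.43 (adjusted p 0.0537), O9499 at -0.19 (0.0807) and A_72_P035891 at -0.19 (0.0874). With that array left out, all 3 were called (adjusted p 0.0158, 0.0373 and 0.0427 in the same order). Its own value on A_72_P440711 was 6.30, where the other LW HS arrays ran from 6.13 to 6.65 and the CR HS arrays from 6.64 to 7.39. On A_72_P035891 it was at 9.80 (other LW HS arrays 9.60 to 9.99, CR HS arrays 9.98 to 10.25) and on O9499 at 9.20 (9.004 to 9.43 and 9.39 to 9.52). It lay within the range of the other LW HS arrays and below every CR HS array on these 3 probes, which were called with it counted as Large White. On A_72_P413663, O7851 and A_72_P668559 it lay likewise. On A_72_P444091 (7.98) and A_72_P464460 (8.56) it lay inside both ranges. On A_72_P232287 (16.82) it lay below both. Over all probes, 3074 were called between LW and CR by limma, against 1842 with LW HS 3 as Creole and 2701 without it, and under heat 1432, against 210 and 858. Arrays were scanned from 5 slides, which all held both breeds, with slide 1 holding 1 LW TN and 1 CR HS array. The LW mean was below the CR mean on 5 of 5 slides for the 3 called probes and for A_72_P232287, on 4 of 5 for O7851 and on 2 of 5 for A_72_P671668.

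Taken by temperature, 2 of 12 probes passed between LW and CR under heat (3.04% of all probes) and 0 at thermoneutrality (0.935%). By unadjusted p under 0.05 in limma the counts were 6 of 12 (16.6%) and 0 of 12 (9.91%). Under heat the LW minus CR difference was -0.79 for A_72_P440711 of CRHR1 (SE 0.15, adjusted p 0.00330) and -0.29 for A_72_P035891 of NR3C1 (SE 0.081, adjusted p 0.0444). The NR3C1 call was lost without any of 12 arrays (LW HS 3, 4, 5 or 6, CR HS 1, 2, 3, 4 or 6, LW TN 3, F1 TN 2 or F1 TN 4), with adjusted p up to 0.119. It was also not made with the processed signal (adjusted p 0.0661), with median scaling (0.169) or with no filter (0.0532). With LW HS 3 as Creole neither probe was called (adjusted p 0.0767 and 0.241). At thermoneutrality the same probes were at -0.17 (SE 0.17, adjusted p 0.871) and -0.11 (SE 0.088, adjusted p 0.787). POMC on A_72_P232287 was at -0.48 under heat (SE 0.15, adjusted p 0.0770), with 6 of 6 LW HS arrays under the CR HS mean, and at -0.06 at thermoneutrality (SE 0.17, adjusted p 0.973). The heat value was called without CR TN 2 (adjusted p 0.0447), CR TN 3 (0.0382) or CR HS 4 (0.0363). O9499 of NR3C1, at -0.27 under heat (adjusted p 0.0692), was called with slide as a fixed or random block (0.0452 and 0.0425), with array weights (0.0491) and without LW HS 2 (0.0377) or F1 HS 4 (0.0314). These values do not show that the breed difference changed with temperature, since the interaction was not called.

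The F1 cross was set beside both parent breeds, and these comparisons share arrays with the preceding one. Against Large White, 0 of 12 probes were called by limma (1.43% of all probes) and 1 had an unadjusted p under 0.05 (13.7%), A_72_P440711 at 0.27 (SE 0.12, adjusted p 0.304) with 10 of 11 F1 arrays above the LW mean. Against Creole, 0 of 12 were called (6.66%) and 5 had an unadjusted p under 0.05 (21.5%). Of the 12 differences 11 were negative, with a median of -0.14, against 0.010 over all probes. Those of the 3′-end POMC probes turned positive with the processed signal or median scaling. With LW HS 3 as Creole, 0 of 12 had an unadjusted p under 0.05 in either comparison. Without 1 array at a time, the count against Creole ran from 1 to 7 and against Large White from 0 to 2. The F1 values against Creole were -0.23 to -0.25 for the CRHR1 probes, -0.14 for both A_72_P035891 and O9499 and -0.25 for A_72_P232287, with adjusted p from 0.153 to 0.265. By breed, A_72_P440711 measured 6.39 ± 0.19 in LW, 6.65 ± 0.26 in F1 and 6.90 ± 0.42 in CR (SD, n = 11), so that the F1 mean lay between those of the parents. A_72_P035891 was in the same order, at 9.79 ± 0.13, 9.85 ± 0.13 and 10.002 ± 0.15. On A_72_P464460 of NR3C1 the F1 mean was above both parents (8.82, against 8.70 in LW and 8.71 in CR). On A_72_P668559 of POMC it was below both (17.08, against 17.13 in LW and 17.30 in CR), as on the 3′-end probes.

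**Figure D4:**
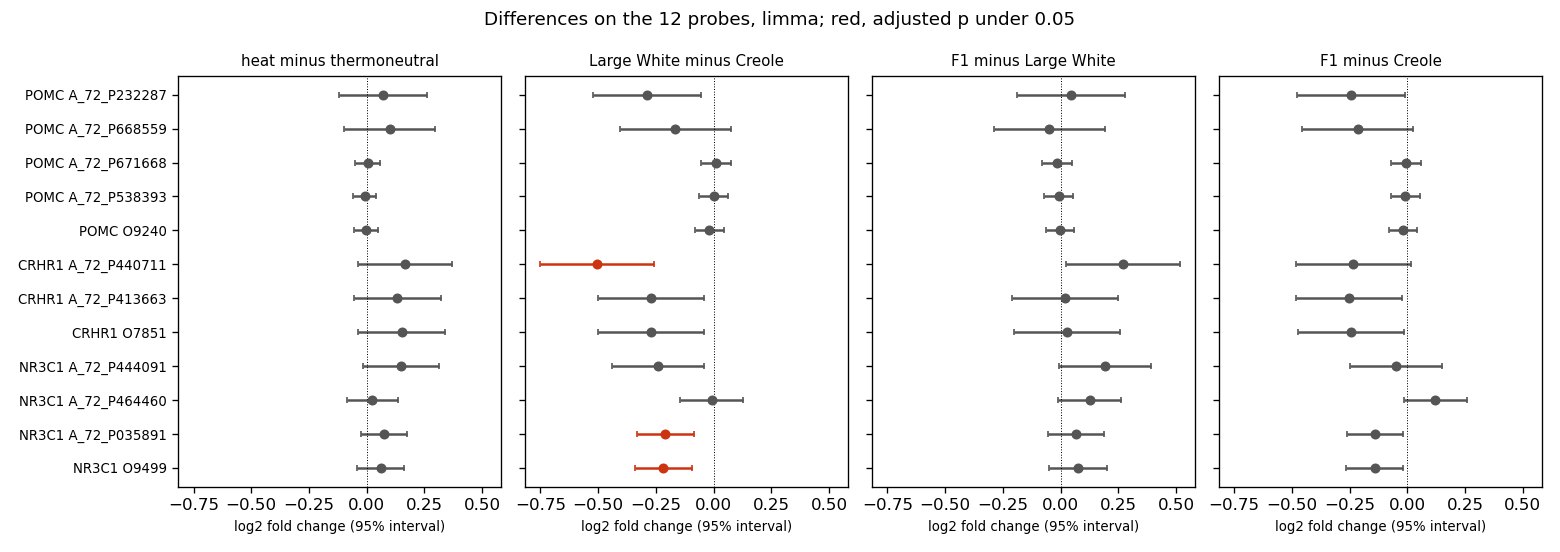
Log2 fold change with its 95% interval for the 12 probes in 4 comparisons by limma; red marks an adjusted p under 0.05, and the dotted line marks no difference. The 3 calls, 1 CRHR1 and 2 NR3C1 probes, are all between Large White and Creole. The 3′-end POMC probes, near the top of the scale, lie at the line with narrow intervals in all 4. Their SD within groups was 0.033 to 0.043 here and 0.081 to 0.091 with median scaling.

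The members were also compared with each other over the 33 arrays after group means were removed, by 1 probe per gene, the brightest. None of the 3 pairs was called by permutation test. CRHR1 and POMC had a Pearson r of 0.26 (p 0.117, adjusted p 0.350) and a Spearman rho of 0.25 (p 0.171, adjusted p 0.258). CRHR1 and NR3C1 had r of -0.20 (p 0.358, adjusted p 0.538) and rho of -0.27 (p 0.172, adjusted p 0.258). NR3C1 and POMC had r of 0.10 (p 0.610, adjusted p 0.610) and rho of 0.10 (p 0.621, adjusted p 0.621). Without the 2 arrays farthest from the median of the first gene, r was 0.25, -0.38 and 0.08. With slide means removed too, r was 0.27, -0.16 and 0.11. With the mean over all probes of a gene, r was 0.33 for CRHR1 and POMC (p 0.122, adjusted p 0.184), -0.002 for CRHR1 and NR3C1 (p 0.993, adjusted p 0.993) and 0.38 for NR3C1 and POMC (p 0.0907, adjusted p 0.184). With the POMC coding probe A_72_P232287, chosen after its values were seen, r was 0.47 for CRHR1 (p 0.0197, adjusted p 0.0592) and -0.08 for NR3C1 (p 0.728, adjusted p 0.728).

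Among 10251 other named genes, those whose values followed each member most closely over the 33 arrays, group means removed, were listed as a description. They were PROX1 (r 0.72), TATDN1 (0.66) and PRPF39 (0.66) for CRHR1 on O7851, and ZFAND6 (0.76), CRISPLD1 (0.70) and HSPE1 (0.68) for NR3C1 on A_72_P035891. For POMC on A_72_P671668 they were KSR1 (0.69), COL9A1 (0.68) and SNAI2 (0.67). For POMC on A_72_P232287 they were CXCR3 (0.72), COL9A1 (0.70) and GNAS (0.67). Each gene was taken at its best probe among as many as 19, and the points share the RNA and depth of an array.

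The rest of the pathway was read from 6 lists, with 1 probe per gene, the brightest. Under heat 0 genes of any list were called, against 0.0195% of 10258 named genes. The genes that glucocorticoids induce stood lower under heat without passing: 7 of 8 were lower, with a median of -0.24 against 0.02 over all named genes, and 4 of 8 had an unadjusted p under 0.05 by limma, against 9.47%. Among them SGK1, a kinase gene induced by cortisol, measured 8.04 ± 0.17 in TN (n = 16) and 7.82 ± 0.22 in HS (n = 17), a difference of -0.23 (SE 0.069, adjusted p 0.251), and lay under the TN mean on 16 of 17 HS arrays. FKBP5, an inhibitory partner of the glucocorticoid receptor, measured 10.27 ± 0.25 and 9.97 ± 0.32, a difference of -0.30 (SE 0.099, adjusted p 0.301), and lay under the TN mean on 15 of 17. ZBTB16 was at -0.39 (SE 0.15, adjusted p 0.405) and KLF9 at -0.26 (SE 0.095, adjusted p 0.363). Their receptor, NR3C1, had differences of 0.02 to 0.15 on its 4 probes.

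Of the 14 transcription factor and cytokine genes, 8 were higher and 6 lower under heat, and 3 higher and 1 lower had an unadjusted p under 0.05 by limma, against 9.47% of all named genes in either direction. The 3 were NR4A3 at 0.57 (SE 0.21, adjusted p 0.387) and NR4A2 at 0.48 (SE 0.20, adjusted p 0.460), orphan nuclear receptors, and PITX1 at 0.17 (SE 0.059, adjusted p 0.346). The 1 lower, SOCS3, a brake on cytokine signalling to POMC, was at -0.43 (SE 0.13, adjusted p 0.252), with 14 of 17 HS arrays lower. Of the 21 signalling genes, 3 higher and 0 lower had an unadjusted p under 0.05 by limma, against the same 9.47%. CREM, a transcription factor of the cyclic AMP pathway, was at 0.25 (SE 0.089, adjusted p 0.362), with 13 of 17 HS arrays higher. PCSK2, the convertase that cuts adrenocorticotropin further and is a melanotroph marker, was at -0.30 (SE 0.27, adjusted p 0.785). Of the 3 blood markers, 1 was called under heat, HBB, lower at -1.15 (adjusted p 0.0307), and ALAS2 and AHSP were at -0.03 and -0.37 and not called. Of the 3 endothelial markers 0 were called, with VWF at -0.40 (adjusted p 0.272), PECAM1 at -0.23 (0.418) and CDH5 at -0.21 (0.590). Their part in the values of these lists was not tested.

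Between Large White and Creole, 6.98% of named genes were called. Of the 14 kept transcription factor and cytokine genes, 1 was called, NEUROD1, which acts with TBX19 at the POMC promoter. It measured 8.75 ± 0.24 in LW and 9.23 ± 0.28 in CR a difference of -0.48 (SE 0.11, adjusted p 0.00521), lower on 11 of 11 arrays, with 2 of its 3 other probes called too. Of the 15 kept partners, cofactors and enzymes of the glucocorticoid receptor, 1 was called, FKBP4, a chaperone partner of the receptor. Its difference was -0.28 (SE 0.057, adjusted p 0.00149), lower in LW on 11 of 11 arrays, with 0 of its 2 other probes called. Of the 21 kept signalling genes, 3 were called higher in LW. ARRB2, a beta-arrestin, was higher by 0.30 (SE 0.060, adjusted p 0.00154), ADCY5, an adenylyl cyclase, by 0.35 (SE 0.096, adjusted p 0.0204), and PRKACB, a catalytic subunit of protein kinase A, by 0.42 (SE 0.12, adjusted p 0.0305). The other PRKACB probe was at 0.06 and not called. The 2 other ARRB2 probes were at -0.07 and 0.24, with 0 called. Of the 8 kept POMC processing genes, 1 was called, PRCP, which clips melanocortin peptides, higher in LW by 0.33 (SE 0.075, adjusted p 0.00407) on 11 of 11 arrays.

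In the same comparison 0 of 5 kept ligand and other receptor genes and 0 of 8 glucocorticoid-induced genes were called. CRHR2 and MC2R, receptors of urocortins and of adrenocorticotropin, did not pass the filter. With LW HS 3 as Creole, ADCY5 (adjusted p 0.0740) and PRKACB (0.239) were not called. PRKACB was also not called with array weights or without the 2 arrays low in TSHB, and FKBP4 was not called with median scaling (adjusted p 0.0957). Without 1 array, PRKACB lost its call on 8 of 33 occasions, with adjusted p up to 0.0641. These arrays were LW TN 2, LW HS 1, LW HS 2, LW HS 3, CR HS 1, CR HS 2, CR HS 4 and CR HS 6.

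In the F1 cross, 2 list genes were called against Large White (1.51% of named genes) and 7 against Creole (7.72%). PITX1, a factor that binds the POMC promoter, was higher in F1 than in LW by 0.29 (SE 0.073, adjusted p 0.0391) and than in CR by 0.24 (SE 0.073, adjusted p 0.0443), with 11 of 11 F1 arrays above both means. FKBP4 was higher in F1 than in LW by 0.22 (SE 0.057, adjusted p 0.0383), and its 2 other probes were at 0.056 and 0.060 and not called. Against CR, 4 signalling genes were higher, PRKACB by 0.59 (adjusted p 0.00334), ADCY5 by 0.42 (0.00727), PRKAR2A by 0.41 (0.0277) and PRKAR1A by 0.19 (0.0429), of which the last 2 encode regulatory subunits of protein kinase A. In the same comparison the other PRKACB probe was at 0.008 and the other PRKAR2A probe at -0.05, neither called. The 4 other PRKAR1A probes ran from -0.095 to 0.22, with 0 called. PCSK1N, an inhibitor of the convertase that frees adrenocorticotropin, was higher than in CR by 0.23 (SE 0.058, adjusted p 0.0126). ANXA1, a glucocorticoid-induced gene, was lower, at -0.67 (SE 0.13, adjusted p 0.00200), on 11 of 11 arrays, and all 8 of its other probes were called. The PITX1 call against LW held in 21 of 33 fits that each left out 1 array, and against CR in 18. The FKBP4 call held in 20 and the PRKAR1A call in 18. Of 10 other alternatives, the PITX1 call held in 7 against LW (adjusted p up to 0.263) and 6 against CR (0.166), the FKBP4 call in 7 (0.313) and the PRKAR1A call in 6 (0.146). The PRKAR2A call was lost without F1 HS 2 (adjusted p 0.0647) and with LW HS 3 as Creole (0.0782).

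**Figure D5:**
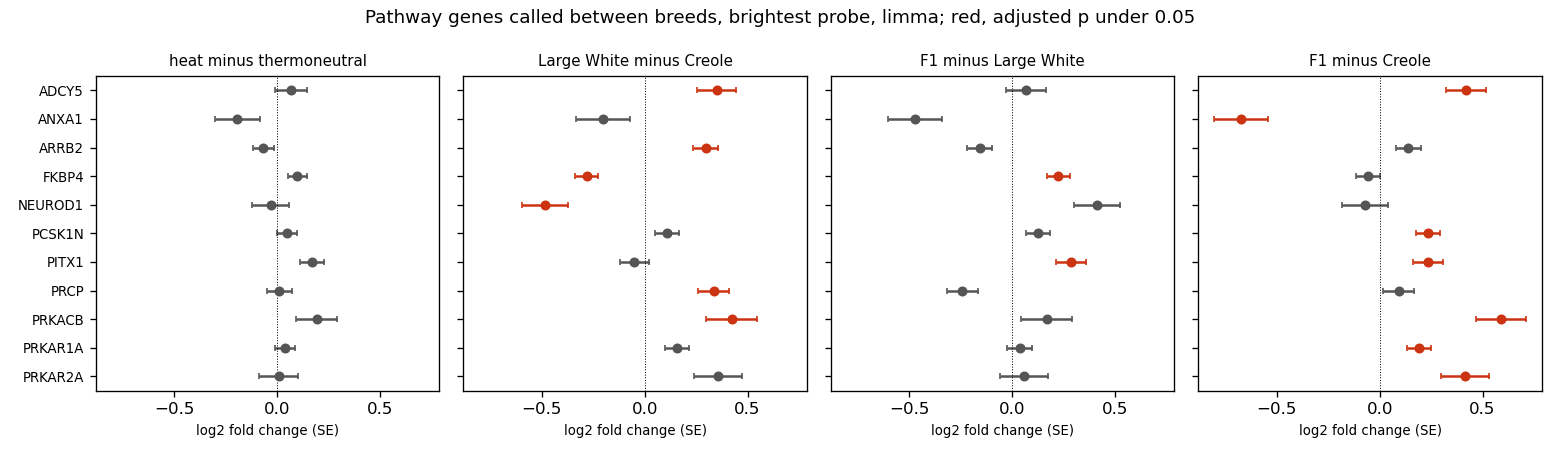
Log2 fold change and SE of the 11 pathway genes called between breeds, on the brightest probe of each, in 4 comparisons by limma; red marks an adjusted p under 0.05. None of the 11 is called under heat, and the calls of ADCY5 and PRKACB are higher than Creole in both Large White and F1.

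Markers of other cell types also differed between Large White and Creole. GHRHR of somatotrophs was lower in LW, at -0.40 (adjusted p 0.0121), and TRHR of thyrotrophs at -0.48 (adjusted p 0.00350). GNRHR and NR5A1 of gonadotrophs were higher by 0.59 and 0.56 (adjusted p 0.0112 and 0.0142), and CDH5 of endothelium by 0.41 (adjusted p 0.0457). With LW HS 3 as Creole, GNRHR (0.50, adjusted p 0.0738) and CDH5 (0.40, adjusted p 0.0754) were not called, and GHRHR (adjusted p 0.0455), TRHR (0.0203) and NR5A1 (0.0286) were. These were 1 of 2 somatotroph, 1 of 2 thyrotroph, 2 of 4 gonadotroph and 1 of 3 endothelial markers, and 0 of 3 melanotroph, 2 posterior lobe, 1 lactotroph, 4 folliculostellate and stem, 3 blood and 3 leukocyte markers were called. The melanotroph markers, averaged per array, ran from 8.34 to 9.08 in LW, from 7.92 to 9.11 in F1 and from 7.67 to 8.60 in CR, with PCSK2 at 0.89 in LW against CR (SE 0.33, adjusted p 0.113). The corticotroph markers POMC, CRHR1 and NEUROD1 averaged 12.01 to 12.30 in LW, 12.06 to 12.52 in F1 and 12.16 to 12.71 in CR. POMC and CRHR1 are members themselves, so this average is not a separate reading of corticotroph number. The part of cell makeup in the CRHR1 and NR3C1 differences was not tested.

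TSHB, the thyrotropin subunit, was far lower on 2 arrays than on the others of their groups, at 8.55 on LW TN 2 and 10.57 on CR TN 1, where the others ran from 14.76 to 15.57 and from 15.73 to 16.35. On LW TN 2 all 5 POMC probes were above the other LW TN arrays, with A_72_P668559 at 17.69 where those ran from 16.93 to 17.16. On CR TN 1 only O9240 of POMC was above the other CR TN arrays (18.904, others up to 18.893), and the rest lay within them. On both arrays A_72_P444091 and A_72_P464460 of NR3C1 were above their groups and A_72_P413663 of CRHR1 below. A_72_P035891 was above on LW TN 2 only, and A_72_P440711 below on CR TN 1 only. Without both arrays, 3 of 12 probes were called between LW and CR and 0 under heat.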

How the data were processed

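RNA of 33 pituitaries was hybridised to 1-colour Agilent arrays, 1 array per animal. The authors extracted spot signals with Agilent Feature Extraction 10.10.1.1, read them in with limma and applied quantile normalization with preprocessCore. The deposited scanner files hold the intensity of each spot, and the deposited value table holds log2 values for 45667 probes.

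Median spot intensities, which the scanner software had not corrected for background, were quantile-normalized and taken to log2 after the authors' description. Control spots and outlier marks were left out, and spots of a probe were averaged. The result differed from the deposited log2 values of the member probes by at most 0.0081. A probe was kept (47083 of 60305) when 75% or more of the arrays in any 1 group read it well above background. The median local background was 20 to 47.5 beside a median intensity of 131 to 165. The number of arrays limits the precision.

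Groups were taken from the sample titles. Breed and temperature were fitted in R 4.3.3 by limma 3.58.1 (additive model, and group means for contrasts within a breed or temperature and for the interaction), with Benjamini-Hochberg adjustment over 47083 probes and a threshold of 0.05. Sire, dam, pen and slaughter day, which the study modelled, were not in the labels and not fitted, nor were litter blocks. Correlations were tested with 1e+05 permutations. The procedure was tested on simulated data. Figures were drawn with matplotlib 3.10.9 in Python 3.11.15.

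Members and lists were chosen with earlier results of these data known. Genes named are the members, list genes past the threshold in a breed or temperature contrast or lowest in p for their list and contrast, and, for likeness, the 3 genes highest in r for the brightest probe of a member. ZBTB16, KLF9, NR4A2 and NR4A3 beside them, other marker values and the second POMC probe were chosen after their values were seen. Neighbours in an order of groups were within their spread where their means differed by less than the larger SD. Alternatives were the deposited table, the processed signal, normexp, median scaling, other filters, slide as a block, array weights, the breed of LW HS 3, and leaving out each array.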

Additional observations from a re-analysis of the deposited data

Results flagged for a closer look

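On the NR3C1 probe O9499, the array F1 HS 4 read 9.73, where the other F1 HS arrays ran from 9.18 to 9.33. Its gap to the nearest array was 0.734 of the range of the group. It was the 1 set of 72 probe-by-group sets in which an array stood apart in this way, a test by which chance marks about 1 set in 20. Without this array the probe was called between F1 and Creole by limma (log2 difference -0.19, adjusted p 0.0257).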

How the results depend on the processing

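Under alternatives other than leaving out 1 array, 6 counts of called probes fell by at least 1.5 times, 4 rose by up to 1.5 times and 1 correlation turned. Of the fold changes of the 12 probes for heat, Large White minus Creole, F1 minus Large White and F1 minus Creole, 477 kept direction and side, 5 lost a call, 1 gained one and 33 turned. Calls lost or gained between Large White and Creole under heat are not in these counts. Between Large White and Creole, 3 probes were called, against 1 with median scaling, 0 with LW HS 3 as Creole and 4 with slide as a fixed block. Between these breeds under heat 2 were called, against 1 with the processed signal, with median scaling or with no filter, 0 with LW HS 3 as Creole, and 3 with slide as a fixed or random block or with array weights. The correlation of NR3C1 with POMC turned with A_72_P232287 (-0.0763), chosen after seeing the data. The heat count was 0 in every alternative run.

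Folds that turned were mostly of the 3′-end POMC probes, none was called, and the cause was not tested. With the processed signal, those of A_72_P671668 were 0.1099 (F1 minus Creole) and 0.07577 (F1 minus Large White), those of A_72_P538393 were 0.102, 0.08036, 0.02162 (Large White minus Creole) and 0.03333 (heat), and those of O9240 were 0.09778, 0.08077, 0.01701 and 0.01917. With median scaling the same folds were 0.06825 and 0.03986, then 0.07537, 0.04969, 0.02567 and 0.02559, then 0.07263, 0.04331, 0.02932 and 0.03303. With normexp, A_72_P538393 turned in Large White minus Creole (0.0001052) and O9240 under heat (0.003104). With slide as a fixed or random block, A_72_P538393 turned in Large White minus Creole (0.002634 and 0.0009226). With array weights the turned folds were -0.08897 and -0.09737 (CRHR1 A_72_P413663 and O7851, F1 minus Large White), 0.004347 and 0.001143 (NR3C1 A_72_P444091 and POMC A_72_P671668, F1 minus Creole) and 0.01944 (NR3C1 A_72_P464460, Large White minus Creole). The last was 0.01957 with LW HS 3 as Creole. Without LW TN 2 and CR TN 1, chosen after seeing the data, it was 0.007523, A_72_P671668 was -0.004364 in the same comparison, and O9240 was 0.003774 under heat.

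Leaving out 1 array at a time gave 1 to 4 called probes between Large White and Creole, with 1 without LW HS 5, 1 to 3 under heat, and 0 to 1 between F1 and Creole. The 1 was A_72_P232287 without CR TN 2 (-0.33, adjusted p 0.0469 by limma) and O9499 without F1 HS 4. A_72_P440711 was called between Large White and Creole in all 33 such fits (-0.58 to -0.46). Folds that turned ran, under heat, from -0.0009115 to 0.01182 (A_72_P671668) and -0.007861 to 0.001164 (O9240). In Large White minus Creole they ran from -0.002149 to 0.01521 (A_72_P671668), -0.03643 to 0.01874 (A_72_P464460) and -0.00711 to 0.005952 (A_72_P538393). In F1 minus Creole they ran from -0.01309 to 0.001047 (A_72_P671668) and -0.09175 to 0.006081 (A_72_P444091). In F1 minus Large White they ran from -0.03164 to 0.08076 (O7851), -0.04471 to 0.07251 (A_72_P413663), -0.08841 to 0.02026 (A_72_P668559) and -0.005903 to 0.00524 (O9240). No paired analysis was possible because the labels carry no replicate numbers that tie animals of different groups together. Slides, which the groups shared, were fitted as a block instead.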
